A study of Homo sapiens with 20 samples.

Results

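The miR-146 family of human cells consists of miR-146a and miR-146b, each cut from its own hairpin into a 5p and a 3p arm. Its levels were followed in TPC-1 cells together with those of IRAK1 and TRAF6, the messenger RNAs best known as its targets. The members, taken by name, are hsa-miR-146a-5p, hsa-miR-146a-3p, hsa-miR-146b-5p, hsa-miR-146b-3p, IRAK1 and TRAF6, written without the species prefix from here on. They are 4 of the 2656 mature miRNAs in the deposited miRNA table and 2 of the 54261 genes in the deposited RNA-seq table. All 6 members passed the filter on low counts, which left 797 miRNAs and 15629 genes for testing.

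TPC-1 is an established line from a human papillary thyroid carcinoma. The coculture group (6 libraries per assay) was TPC-1 kept for 48 h beside PMN-MDSCs (polymorphonuclear myeloid-derived suppressor cells), immature neutrophil-like cells that hold back T cells, and the control group (4 libraries per assay) was TPC-1 left untreated. Both groups are of this single cell line. Neither the source of the PMN-MDSCs, nor whether a membrane kept the cell types apart, nor whether PMN-MDSCs were taken off before RNA extraction is given in the sources used here. The labels do not say that libraries of a group are separate cultures, so p-values measure the spread between libraries, which may be technical. They also do not say that a number shared by a miRNA-seq and an RNA-seq library marks the same culture.

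miR-146a and miR-146b are known as brakes on innate immune signalling. When an interleukin-1 receptor or a Toll-like receptor is engaged, the adaptor MYD88 gathers IRAK kinases, IRAK1 activates the ubiquitin ligase TRAF6, and TRAF6 leads through the kinase MAP3K7 and the IKK complex to NF-kB, a transcription factor that switches on the miR-146a gene among many others. miR-146 binds the messages of IRAK1 and TRAF6 and lowers the proteins made from them, a negative feedback loop. In papillary thyroid carcinoma, miR-146b is known as a strongly raised miRNA.

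A miRNA recognises messages mainly through its seed, bases 2 to 8 from the 5′ end. The mature sequences are printed with the seed in capitals because the seeds set which members can share targets. They are from RefSeq (GRCh38.p14), which held all 5 sequences looked up, and each equals the sequence in the deposited table with U for T. The first 3 have the seed GAGAACU in common.
miR-146a-5p: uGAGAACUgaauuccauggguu
miR-146b-5p: uGAGAACUgaauuccauaggcug
miR-7153-5p: uGAGAACUgacaaaugugguagg
miR-146a-3p: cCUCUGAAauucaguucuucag
miR-146b-3p: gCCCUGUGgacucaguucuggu

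The 5p arms of miR-146a and miR-146b are near copies. Of 22 positions compared, 20 were identical, including the first 17. Counted from the 5′ end, with the base of miR-146a first, the differences were G18A and U21C, and miR-146b-5p, 23 bases long, has 1 base more at its 3′ end. The 3p arms were identical at 6 of 22 positions and have different seeds. miR-7153-5p, the only other mature miRNA of the deposited table with the seed of the 5p arms, had 10 counts over the 6 coculture libraries and 2 over the 4 controls, and it was not tested.

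The hairpins lie on different chromosomes. MIR146A (99 bases) is at chr5:160485352-160485450 and MIR146B (73 bases) at chr10:102436512-102436584, both on the plus strand, in the coordinates of the deposited RNA-seq table. They are printed with both arms in capitals, to show that the arms of a hairpin come from the same precursor. In GRCh38.p14, miR-146a-5p is at chr5:160485372-160485393 and miR-146a-3p at chr5:160485408-160485429. miR-146b-5p is at chr10:102436520-102436542 and miR-146b-3p at chr10:102436557-102436578.
MIR146A: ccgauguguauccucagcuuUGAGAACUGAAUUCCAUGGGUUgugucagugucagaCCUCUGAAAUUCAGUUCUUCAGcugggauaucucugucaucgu
MIR146B: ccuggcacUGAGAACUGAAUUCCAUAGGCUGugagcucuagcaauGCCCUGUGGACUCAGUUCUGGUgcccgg

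RNA-seq libraries held 40237801 to 48197608 counts, miRNA-seq libraries 3971608 to 5895539, and levels are given as CPM, read counts scaled to a common normalised library size. A count of 3 per library was taken as the floor. In RNA-seq, coculture libraries 1 and 2 stood apart from the other 8 on the first principal component (39.3% of the variance), at -66.1 and -60.6 against 0.908 to 31.8. In miRNA-seq, control 4 stood apart in blood cell miRNAs: 10 such miRNAs summed to 26690.8 CPM there, against 1022 to 1363 CPM in the other controls and 458 to 1912 CPM in coculture. The thyroid and epithelial markers of these cells were mixed. PAX8, a thyroid transcription factor, stood at 624.9 ± 107 CPM in coculture (SD, n = 6) and 508 ± 11.2 in control (SD, n = 4), and the keratins KRT8 and KRT18 were above 200 CPM in both groups. The thyroid factors FOXE1 and HHEX, the keratins KRT7 and KRT19 and TG, which encodes thyroglobulin, were lower in level, from 0.594 to 10.2 CPM as group means. None of these 8 thyroid and epithelial genes was called, where 1.14% of all tested genes were called higher and 0.186% lower. By unadjusted p under 0.05 (edgeR), 2 of the 4 tested thyroid genes were higher and 0 of the 4 epithelial genes. Over all genes, 6.07% were higher by that rule. The thyroid transcription factor NKX2-1 and the receptor TSHR had 1 count each over all 10 libraries. EPCAM and CDH1, epithelial adhesion molecules, had 33 and 5 counts over all libraries.

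Both arms of miR-146a rose in coculture, 5.78-fold and 5.48-fold, and both arms of miR-146b rose 2.51-fold and 2.21-fold from a far lower level. So 4 of 4 family members were called higher with edgeR's quasi-likelihood test at an adjusted p under 0.05, where 1.13% of the 797 tested miRNAs were called higher. That share is 9 miRNAs and includes these 4. Arms of the same hairpin are not separate events. The calls of miR-146b-5p and miR-146b-3p held in 11 and 5 of 16 alternative fits. The ranges of coculture and control libraries did not overlap for any of the 4 arms, against 1.88% of tested miRNAs with such a gap upward. IRAK1 and TRAF6 were called in neither direction.

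miR-146a-5p, the main working strand of the family, stood at 909, 581, 262, 529, 312 and 492.8 CPM in coculture libraries 1 to 6. In controls 1 to 4 it stood at 75.8, 96.2, 95.6 and 88.2 CPM. The lowest coculture library was thus well above the highest control, coculture 1 was the highest library, and the coculture libraries spread far more widely than the controls. The means were 514 ± 230 CPM (SD, n = 6) and 89.0 ± 9.46 (SD, n = 4), a log2 fold change of 2.53 ± 0.31 (SE), which is 5.78-fold with a 95% interval of 3.62 to 9.24 (adjusted p = 0.00165, edgeR). By unadjusted p it ranked 1 of the 797 miRNAs. By mean level it was the 98th miRNA in coculture and the 194th in control.

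miR-146a-3p, the opposite strand of the same hairpin, ordered the libraries in nearly the same way. Its lowest, median and highest coculture values were 48.2, 84.5 and 204 CPM, and the controls stood at 17.1, 18.3, 16.5 and 21.9 CPM. Coculture 1 was again highest and coculture 3 again lowest. The log2 fold change was 2.45 ± 0.36 (SE), 5.48-fold with a 95% interval of 3.20 to 9.38 (adjusted p = 0.00298, edgeR). Both arms stayed past the threshold in 16 of 16 alternative fits, with the 5p arm between 2.17 and 2.66 and the 3p arm between 1.95 and 2.59 on the log2 scale.

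miR-146b-5p was far less abundant. It stood at 19.3, 11.2, 11.9, 11.5, 7.32 and 13.1 CPM in coculture 1 to 6, from 36 to 99 counts per library. In controls 1 to 4 it stood at 5.11, 5.56, 5.24 and 3.83 CPM, from 21 to 28 counts. Coculture 1 was highest, as for miR-146a, but coculture 5 and not coculture 3 was lowest. The means were 12.4 ± 3.92 CPM (SD, n = 6) and 4.93 ± 0.762 (SD, n = 4), a log2 fold change of 1.33 ± 0.26 (SE), 2.51-fold with a 95% interval of 1.71 to 3.68 (adjusted p = 0.0241, edgeR). The call was lost in 5 of the 10 fits that each left out 1 library (coculture 3 or 6, control 1, 2 or 4), with adjusted p up to 0.0634, and the log2 fold change stayed between 1.15 and 1.44 in all 16 alternative fits.

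miR-146b-3p stood at 8.00, 9.02, 8.90, 5.47, 6.31 and 10.3 CPM in coculture 1 to 6, and at 2.75, 4.97, 3.37 and 3.28 CPM in controls 1 to 4. Control 2, the highest control, came close to coculture 4, the lowest coculture library. The log2 fold change was 1.15 ± 0.25 (SE), 2.21-fold with a 95% interval of 1.53 to 3.21 (adjusted p = 0.0426, edgeR). This call held in only 5 of 16 alternative fits, with adjusted p up to 0.156, while the log2 fold change stayed between 1.04 and 1.36. It is the least certain of the 4, at 30 to 50 counts per coculture library and 14 to 25 per control library.

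**Figure D1:**
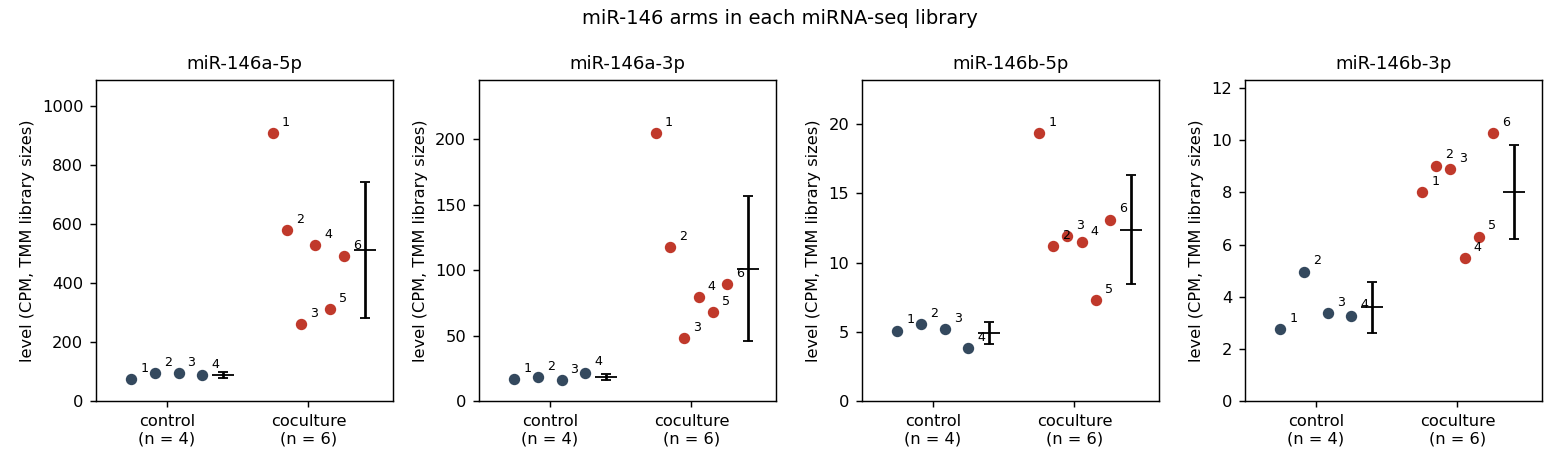
Level of each miR-146 arm in CPM (vertical axis, from 0, a separate scale per panel) in the 4 control and 6 coculture miRNA-seq libraries. Each point is 1 library with its number, and the bar beside the points is the mean with 1 SD; in every panel all coculture points lie above all control points.

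The 5p arm made up 83.8% ± 1.94 of miR-146a counts in coculture (SD, n = 6; 15595 of 18657 counts) and 82.8% ± 2.33 in control (SD, n = 4; 1865 of 2252 counts). The ranges, 81.6% to 86.9% and 80.1% to 85.3%, lay over each other. For miR-146b the 5p share was 60.2% ± 7.19 in coculture (SD, n = 6; 377 of 618 counts) and 58.1% ± 5.81 in control (SD, n = 4; 103 of 178 counts), again with overlapping ranges. In single libraries the miR-146b share carried wide counting intervals, such as 37.2% to 69.9% for control 4 (95% Clopper-Pearson, counting error only). A shift of a few percentage points in the arm balance of miR-146b was not detectable at this depth.

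miR-146a made up nearly all of the family's 5p counts in both groups, and the more so in coculture. Its share of both 5p arms was 97.4% ± 0.915 in coculture (SD, n = 6; 15595 of 15972 counts) and 94.7% ± 0.888 in control (SD, n = 4; 1865 of 1968 counts). The groups overlapped only through coculture 3, at 95.6%, and control 4, at 95.8%, and no test was made on this share. The 3 miRNAs with the shared seed, miR-7153-5p included, summed to 274 to 928 CPM in coculture (mean 527 ± 234, SD, n = 6) and 81.0 to 102 CPM in control (mean 94.0 ± 9.64, SD, n = 4), with no overlap.

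**Figure D2:**
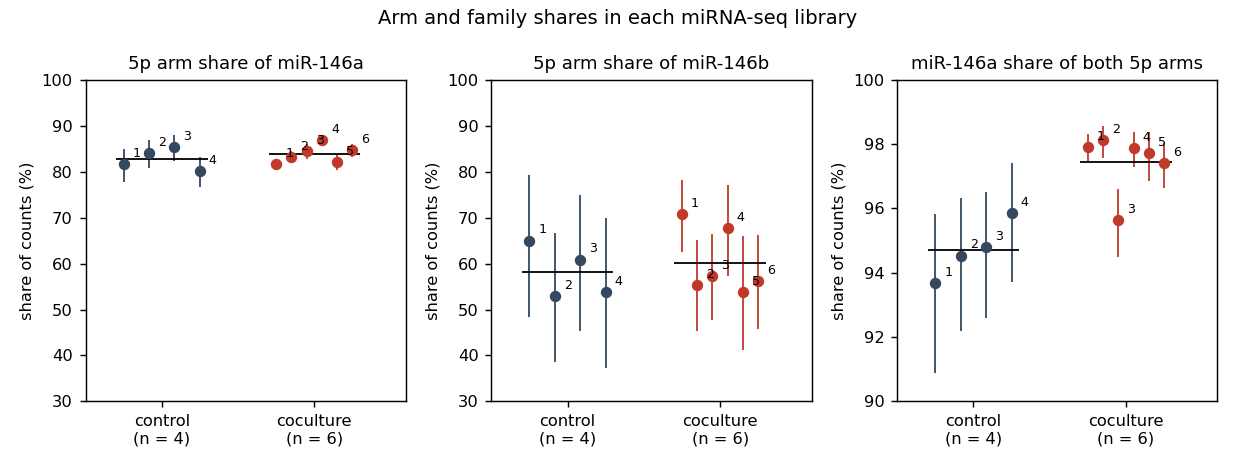
Shares of miRNA-seq counts in percent (vertical axes from 30 to 100 and, in the right panel, from 90 to 100): the 5p arm within miR-146a, the 5p arm within miR-146b, and miR-146a within both 5p arms. Points are libraries with their numbers, vertical lines are 95% Clopper-Pearson intervals and horizontal lines are group means; the groups overlap in the first 2 panels and meet in the third only at coculture 3 and control 4.

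Because the 5p arms are the same up to base 17, reads cut short of base 18 cannot be told apart, and how the authors assigned such reads is not given in the sources used here. miR-146a-5p was over 10 times as abundant as miR-146b-5p in every library, and the part of its reads in the miR-146b-5p counts was not tested. The 3p arms have no such likeness, but their values do not show how the 5p reads were assigned. miR-146b-3p was higher by 1.15 on the log2 scale where miR-146b-5p was higher by 1.33. The call of miR-146b-3p held in only 5 of 16 alternative fits.

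The long RNA that carries the miR-146a hairpin rose with it. MIR3142HG, a long noncoding host gene, runs over chr5:160468251-160487426 on the plus strand, and the hairpin lies inside its span, 17101 bases from its start and 1976 before its end. It stood at 10.8, 6.70, 4.39, 9.41, 4.35 and 4.82 CPM in coculture 1 to 6. In controls 1 to 4 it stood at 1.004, 0.618, 0.364 and 0.700 CPM, from 15 to 47 counts. Coculture 1 was highest here as for the mature arms, and the groups were far apart. The log2 fold change was 3.32 ± 0.37 (SE), 9.97-fold with a 95% interval of 5.69 to 17.5 (adjusted p = 0.000689, edgeR), where 1.14% of the 15629 tested genes were called higher and 2.45% had no overlap upward. It was past the threshold in 16 of 16 alternative fits, between 3.07 and 3.58 on the log2 scale.

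The hairpins themselves were not seen in RNA-seq. The row MIR146A had 0 counts in all 10 RNA-seq libraries, the row MIR146B had 1 count in control 2 alone, and MIR3142, a second hairpin inside the same host gene at chr5:160474444-160474525, had 1 count in coculture 2 alone. In miRNA-seq, mature miR-3142 had 13 counts over the 6 coculture libraries and 3 over the 4 controls, 1 to 3 per coculture library, and was not tested. It was at or under the floor of 3 counts in every library.

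The promoter of MIR3142HG is printed because the miR-146a gene is known to be switched on by NF-kB and because its host transcript was among the called genes. RefSeq (GRCh38.p14) gives chr5:160468001-160468300 on the plus strand, from 250 bases before the start to 50 after it. The only match to the NF-kB consensus, GGGACTTTCC, is in capitals.
MIR3142HG promoter: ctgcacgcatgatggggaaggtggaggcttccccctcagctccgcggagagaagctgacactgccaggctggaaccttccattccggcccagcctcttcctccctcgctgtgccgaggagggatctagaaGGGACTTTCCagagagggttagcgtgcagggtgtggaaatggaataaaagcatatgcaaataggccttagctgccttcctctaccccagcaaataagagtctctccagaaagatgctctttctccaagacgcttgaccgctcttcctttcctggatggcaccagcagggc
The match begins 120 bases before the start. Searched on both strands, those letters occurred in 67 of 35116 RefSeq promoters of the same length (0.191%). The letters were read from this promoter, so its own exact match was fixed beforehand and their rarity is a description only. The NF-kB consensus, which includes these letters, occurred in 3956 of them (11.3%). The promoter of IRAK1 held 0 exact matches and 1 match to the consensus, and that of TRAF6 held 0 of either. A match is a description of the letters in this window and not a binding site shown by these data.

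Genes near the hairpins were compared to see whether the rise was shared by their surroundings, a window of 100000 bases on each side that was chosen after the data were seen. Over all tested genes, 1.14% were called higher and 0.186% lower. Around MIR146A, 4 genes were tested, and only MIR3142HG was called. The others were PTTG1, the securin of mitosis, at 0.08 ± 0.11 (log2 fold change ± SE), the splicing factor gene SLU7 at 0.15 ± 0.16, and ZBED8 at -0.15 ± 0.32. Around MIR146B, 10 genes were tested, and only NFKB2 was called. NFKB2, the gene of the NF-kB subunit p100, lies at chr10:102394110-102402529, 33983 bases from the hairpin, and rose from 99.4 ± 9.999 CPM (SD, n = 4) to 199 ± 45.8 (SD, n = 6), a log2 fold change of 1.004 ± 0.16 (SE; adjusted p = 0.00548, edgeR). CUEDC2, the nearest gene at 3846 bases, stood at 0.09 ± 0.09. RPARP-AS1 stood at 0.50 ± 0.17 (adjusted p = 0.297, edgeR), with no overlap between the groups, as in 2.45% of all genes upward. The other 7 lay between -0.10 and 0.48. RNA from the MIR146B hairpin region itself was at or under 1 count per library, so the transcript that carries miR-146b could not be followed.

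**Figure D3:**
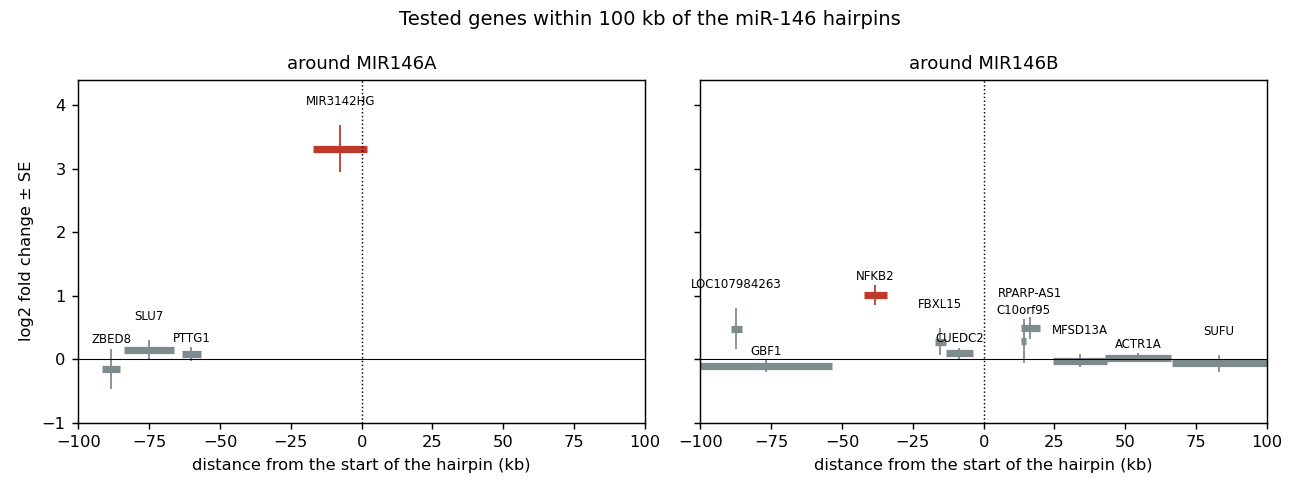
Log2 fold change, coculture against control, of the tested genes within 100000 bases of each miR-146 hairpin, with vertical lines for 1 SE on either side. Genes called at an adjusted p under 0.05 are in red: MIR3142HG near MIR146A and NFKB2 near MIR146B, with the rest in grey between -0.15 and 0.50.

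IRAK1, a kinase that miR-146 is best known to lower, did not pass the test. The gene lies at chrX:154010506-154019906 on the minus strand. It stood at 776, 740, 1276, 1135, 1312 and 1219 CPM in coculture 1 to 6. In controls 1 to 4 it stood at 1210, 1219, 1461 and 1416 CPM. Coculture 1 and 2 lay below all controls, while the other 4 coculture libraries lay within or close under the control range. The means were 1076 ± 254 CPM (SD, n = 6) and 1327 ± 131 (SD, n = 4), a log2 fold change of -0.30 ± 0.16 (SE; 95% interval -0.66 to 0.06; adjusted p = 0.600, edgeR). Without coculture 1 and 2, the libraries that stood apart in RNA-seq as a whole, the log2 fold change was -0.12 (adjusted p = 0.570, edgeR).

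TRAF6, the ubiquitin ligase that acts after IRAK1, lies at chr11:36483767-36510313 on the minus strand. It stood at 12.2, 11.6, 18.0, 15.2, 17.7 and 15.1 CPM in coculture 1 to 6. In controls 1 to 4 it stood at 19.0, 20.3, 16.3 and 13.5 CPM. Coculture 1 and 2 were lowest here too, and the groups overlapped. The log2 fold change was -0.21 ± 0.16 (SE; 95% interval -0.55 to 0.13; adjusted p = 0.712, edgeR), and without coculture 1 and 2 it was -0.08 (adjusted p = 0.839, edgeR). Neither target passed the threshold in any of the 16 alternative fits, nor did either turn to a positive value in them. Read from the intervals, a fall of IRAK1 by up to 0.66 or of TRAF6 by up to 0.55 on the log2 scale lies within what these libraries allow. A message's level does not show how much protein is made from it.

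Per length of transcript, IRAK1 stood at 301 ± 71.1 CPM per kilobase in coculture (SD, n = 6) and 372 ± 36.6 in control (SD, n = 4), and TRAF6 at 1.87 ± 0.331 and 2.15 ± 0.378. The ratio of their levels per length was 160 ± 15.0 in coculture (SD, n = 6), from 143 to 181, and 179 ± 48.3 in control (SD, n = 4), from 135 to 236. The coculture ratios lay wholly inside the control range.

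**Figure D4:**
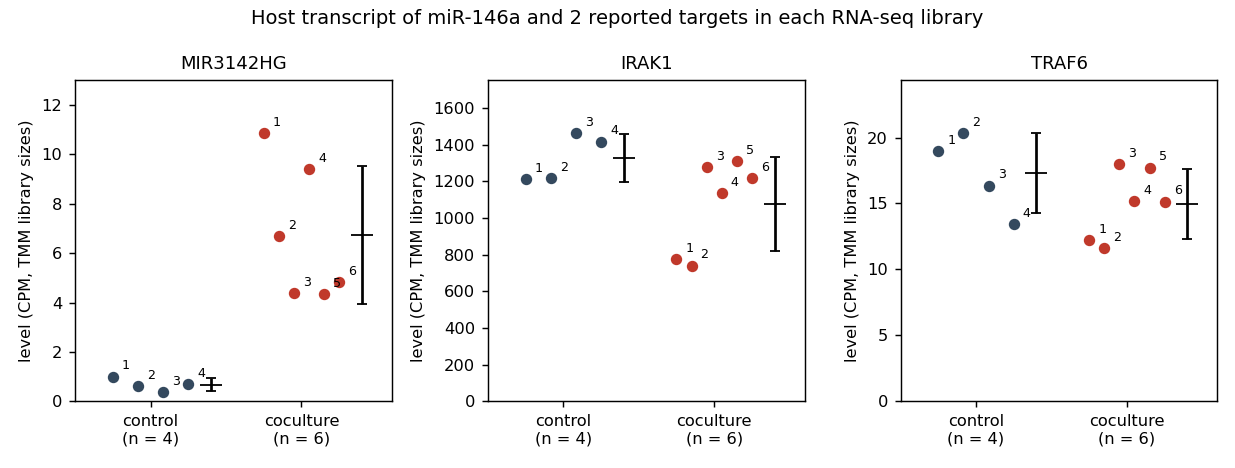
Level in CPM (vertical axis, from 0, a separate scale per panel) of MIR3142HG, IRAK1 and TRAF6 in the 4 control and 6 coculture RNA-seq libraries. Points are libraries with their numbers and the bar beside them is the mean with 1 SD; MIR3142HG is apart in the groups, while IRAK1 and TRAF6 overlap with coculture 1 and 2 lowest.

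The patterns most like each member were taken by Pearson correlation of log2 CPM over the 10 libraries, as a description. For miR-146a-5p they were miR-146a-3p (r = 0.99), miR-200b-5p (0.89) and miR-200a-3p (0.89), among 419 miRNAs. Within the 6 coculture libraries alone r was 0.96 for miR-146a-3p, 0.03 for miR-200b-5p and 0.42 for miR-200a-3p. For miR-146b-5p they were miR-146a-5p (0.93), miR-200a-3p (0.92) and miR-146a-3p (0.91), among 420. IRAK1 was most like AARS2, RCC1 and EI24 (each 0.99), and TRAF6 most like ADIPOR2 (0.98), GALNT7 (0.98) and WWC2 (0.97), each among 10356 genes. These points share the 2 groups, the libraries and, for the genes, the distance of coculture 1 and 2 from the rest.

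Of the other genes of the relay from receptor to NF-kB, 3 rose and the rest did not pass the test. The list held 34 genes, of which 31 were tested, 3 were called higher, 0 lower and 28 not called, where 1.14% of all genes were called higher and 0.186% lower, and its median log2 fold change was 0.10, against 0.01 over all genes. IRAK2, a kinase that works beside IRAK1 and is itself a reported miR-146 target, stood at 69.0, 60.4, 41.3, 68.6, 56.4 and 63.5 CPM in coculture 1 to 6 and at 25.3, 24.6, 22.3 and 20.5 CPM in control. Its log2 fold change was 1.37 ± 0.14 (SE; adjusted p = 0.000367, edgeR), with every coculture library above every control.

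NFKBIA, which encodes the inhibitor that holds NF-kB in the cytoplasm, rose by 1.67 ± 0.22 on the log2 scale (SE; adjusted p = 0.00145, edgeR), from 29.7 to 54.8 CPM in the controls to 96.5 to 182 CPM in coculture. TNFAIP3, which encodes the enzyme A20 that strips ubiquitin chains made by TRAF6, rose by 2.46 ± 0.36 (SE; adjusted p = 0.00352, edgeR), from 2.96 to 7.79 CPM to 16.6 to 43.0 CPM. All 3 genes that rose are known to be induced by NF-kB or by the relay itself. What raised them here was not tested, and the list was chosen with earlier results of these data known. NFKB1, the p105 subunit gene, stood at 111 ± 10.2 CPM in coculture (SD, n = 6) and 87.5 ± 2.58 in control (SD, n = 4). Its groups did not overlap, as in 2.45% of all genes upward, and its adjusted p was 0.0887 (edgeR). It was called with DESeq2 (adjusted p = 0.00753) and without coculture 1 and 2 (adjusted p = 0.00880, edgeR). The adaptor MYD88 (0.10 on the log2 scale), the kinase IRAK4 (-0.06) and MAP3K7 (0.01) were not called.

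Among the 27 other reported targets of miR-146, 19 were tested, 2 were called higher, 0 lower and 17 not called. The median log2 fold change was -0.08, and 7 of the 19 were positive. The 2 that rose were IRAK2 and RELB, the NF-kB subunit of the alternative pathway, which went from 43.6 ± 5.63 CPM (SD, n = 4) to 99.3 ± 7.42 (SD, n = 6), a log2 fold change of 1.19 ± 0.10 (SE; adjusted p = 8.44e-05, edgeR). TLR4, the receptor for bacterial endotoxin, also on the relay list, stood at 13.6 ± 1.25 CPM in coculture (SD, n = 6) and 18.4 ± 2.81 in control (SD, n = 4), without overlap, as in 1.17% of all genes downward, and at an adjusted p of 0.143 (edgeR). MMP16, a membrane metalloproteinase, stood at 31.2 ± 7.16 (SD, n = 6) and 47.2 ± 8.79 CPM (SD, n = 4; adjusted p = 0.172, edgeR). With edgeR, 0.186% of all genes were called lower. By unadjusted p under 0.05, 5 of the 19 were lower and 3 higher, where 3.58% of all genes were lower and 6.07% higher. DESeq2 called 2 of the 19 lower, TLR4 and MMP16, where it called 0.679% of all genes lower. With a list this short, those shares rest on a handful of genes.

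**Figure D5:**
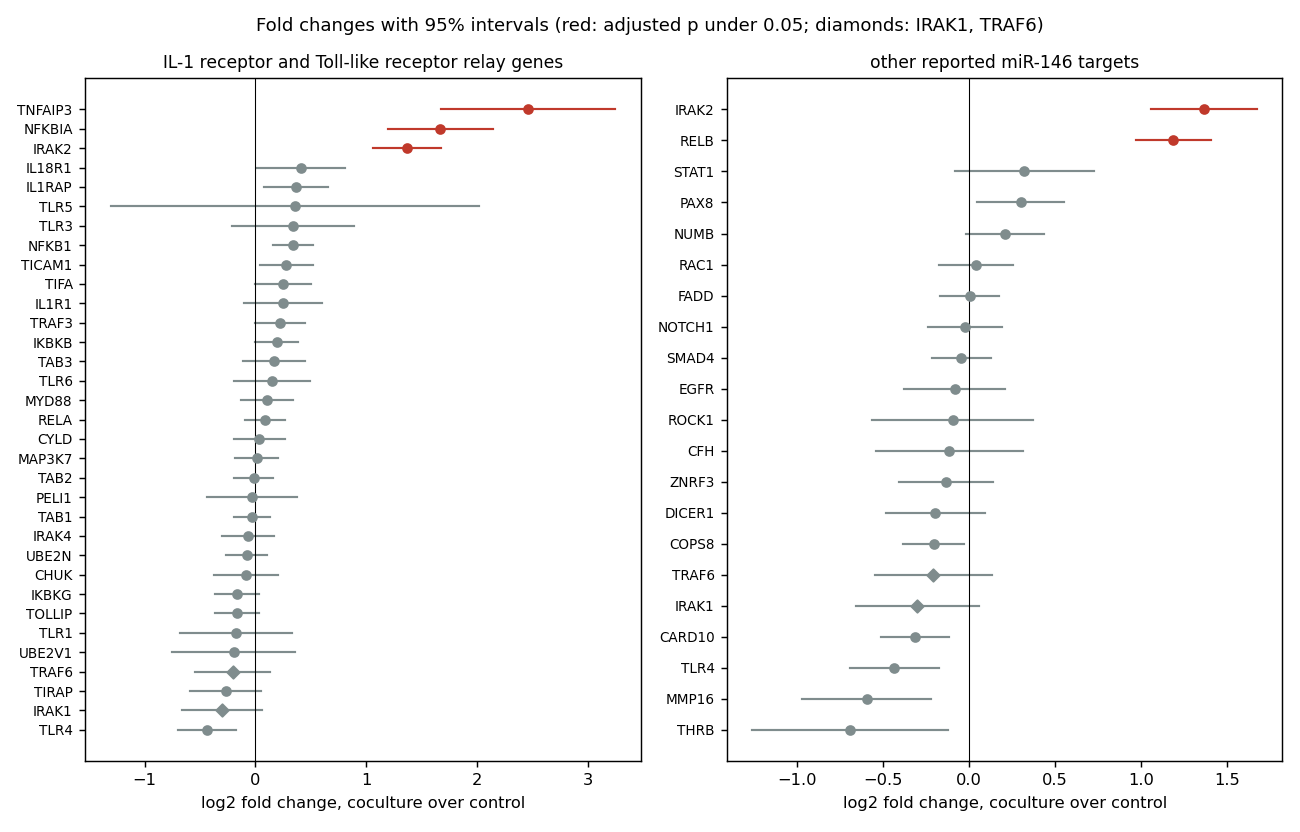
Log2 fold change, coculture against control, of the tested relay genes (left) and of the other tested miR-146 targets (right), each list shown together with IRAK1 and TRAF6 as diamonds. Lines are 95% intervals and red marks an adjusted p under 0.05: IRAK2, NFKBIA, TNFAIP3 and RELB, while IRAK1 and TRAF6 lie at -0.30 and -0.21.

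Other miRNAs known to be induced by NF-kB or inflammatory signals were called in neither direction. Of 22 listed, 21 were in the table and 20 were tested. edgeR called 0 of them, where it called 1.13% of all miRNAs higher and 0.125% lower. By unadjusted p under 0.05, 1 was higher, where 4.02% of all miRNAs were higher and 7.40% lower. DESeq2 called 0, where it called 1.65% of all miRNAs higher and 0.38% lower. With a list this short, these counts do not set it apart from all miRNAs. The median log2 fold change was 0.10, against -0.05 over all miRNAs, and 17 of 20 were positive. miR-155-5p, the best known inflammatory miRNA, stood at 3110 ± 393 CPM in coculture (SD, n = 6) and 2293 ± 571 in control (SD, n = 4), a log2 fold change of 0.44 ± 0.16 (SE; adjusted p = 0.320, edgeR). miR-132-3p stood at 35.1 ± 5.34 (SD, n = 6) and 29.5 ± 3.86 CPM (SD, n = 4; adjusted p = 0.555, edgeR), and miR-212-3p, from the same cluster, at 2.11 ± 1.07 (SD, n = 6) and 1.43 ± 0.570 CPM (SD, n = 4; adjusted p = 0.614, edgeR). miR-21-5p, by far the most abundant miRNA here, stood at 427004 ± 38906 (SD, n = 6) and 386144 ± 40702 CPM (SD, n = 4; adjusted p = 0.600, edgeR).

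Of 23 other miRNAs known to be altered in papillary thyroid carcinoma, 19 were tested. edgeR called 0 of them, where it called 1.13% of all miRNAs higher and 0.125% lower. By unadjusted p under 0.05, 4 passed (1 higher, 3 lower), where 4.02% of all miRNAs were higher and 7.40% lower. DESeq2 called 0, where it called 1.65% of all miRNAs higher and 0.38% lower. The median log2 fold change was 0.07. Of the 3 lower, miR-451a (-3.41 on the log2 scale) and miR-486-5p (-2.48) rest on control 4, and without it they stood at -0.65 and -0.53. The oncogenic pair miR-221-3p and miR-222-3p stood at 0.07 ± 0.12 and 0.07 ± 0.16 (log2 fold change ± SE). miR-181a-5p was at 2714 ± 232 CPM in coculture (SD, n = 6) and 3339 ± 510 in control (SD, n = 4), without overlap, as in 1.38% of all miRNAs downward, and at an adjusted p of 0.353 (edgeR). In these cells miR-146b-5p, at 4.93 CPM in control, ranked 550 of 797 miRNAs by level, and 383 in coculture.

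Transcripts of myeloid genes were higher in the coculture libraries, and miR-146a is also expressed by myeloid cells. Of 28 myeloid and leukocyte genes, 11 passed the filter and 10 of these were called higher, where 1.14% of all tested genes were. Several passed through the coculture libraries alone, such as CD53 with 425 counts there and 0 in control, so this number describes the list and is no support for a shift of it. Their summed level was 164 to 215 CPM in coculture and 136 to 159 CPM in control. Most of that sum is LAPTM5, a lysosomal gene that stood at 141 ± 16.3 (SD, n = 6) and 142 ± 9.94 CPM (SD, n = 4), and without it, a choice made after the data were seen, the sum was 25.9 to 50.4 CPM in coculture and 2.43 to 3.11 CPM in control. LYZ, which encodes lysozyme, stood at 13.9 ± 2.17 CPM (SD, n = 6) against 0.0860 ± 0.0783 (SD, n = 4), the integrin gene ITGB2 at 11.2 ± 2.53 against 1.495 ± 0.263, and the monocyte marker CD14 at 2.90 ± 1.22 against 0.0863 ± 0.0435. ITGAM, the integrin CD11b of myeloid cells, had 297 counts over the coculture libraries and 3 over the controls. Genes of neutrophils and their precursors went both ways, though those lower in coculture had few counts. LTF had 9 counts over the coculture libraries against 23 over the controls, and CAMP had 7 against 8. S100A12, AZU1 and CEACAM8 had 1 count each, in coculture. S100A9, which passed the filter through the coculture libraries alone, had 235 counts there against 1 in control. S100A8 had 53 against 0, CSF3R 11 against 0, MPO 10 against 0 and OLR1 11 against 1. FCGR3B, CXCR1, CXCR2, ELANE, PRTN3 and ARG1 were at 0 counts in all 10 libraries.

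In miRNA-seq, DESeq2 called 1 of the 10 blood cell miRNAs, miR-223-5p, higher, where it called 1.65% of all miRNAs higher. None of the 10 was called by edgeR. By unadjusted p under 0.05 from edgeR, 7 passed (2 higher, 5 lower), where 4.02% of all miRNAs were higher and 7.40% lower. Control 4 decides this count. Without control 4, edgeR called 5 of the 10 higher, where 12 miRNAs in all were called higher in that fit. miR-223-3p, the neutrophil miRNA, stood at 53.9 CPM on average in coculture. It stood at 3.17 ± 0.0205 CPM in controls 1 to 3 (SD, n = 3) and at 54.0 in control 4. miR-142-3p, a pan-leukocyte miRNA, stood at 62.0 CPM in coculture against 3.50 ± 0.664 in controls 1 to 3 (SD, n = 3) and 60.5 in control 4. miR-146a-5p stood at 88.2 CPM in control 4, inside the range of the other 3 controls. The blood cell miRNAs of control 4 were another mix than those of coculture. Its miR-451a stood at 23153.7 CPM, against 243 to 1241 CPM in coculture. Control 4 thus cannot stand in for RNA of PMN-MDSCs. The part of miR-146 and MIR3142HG that came from myeloid cells was not tested. In bulk RNA, a higher level per cell and a larger number of cells of a type that expresses it cannot be told apart.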

How the data were processed

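RNA and small RNA of TPC-1 cells were sequenced in 6 coculture and 4 control libraries per assay, grouped by the treatment labels. The authors deposited raw read counts per gene symbol and per mature miRNA, and the RNA-seq table also gives a transcript length (another unit, in bases). HISAT2 2.0.4, BWA and GRCh38.p10 are named in the submitters' processing notes with no role. Counting tool, annotation, use of strand, trimming and miRBase release are not stated in the labels, so counts of near-identical miRNAs and of overlapping genes are uncertain. Ligation bias differs between miRNAs, so levels compare best within a miRNA. Unused value columns numbered 0.

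Counts were tested in R 4.3.3 with edgeR 4.0.16 (TMM, filterByExpr by group, robust quasi-likelihood fit, coculture minus control), separately per assay, with Benjamini-Hochberg adjustment over all tested features and a threshold of 0.05. SE is the size of a log2 fold change over the square root of F. Alternatives were the size factors of DESeq2 1.42.0 in edgeR, library totals alone, the DESeq2 Wald test, no filter, a replicate block, each library left out and coculture 1 and 2 left out. Correlations used log2 CPM with a prior count of 2. Data were simulated with 200 changed features (negative binomial, these libraries' means and sizes, the same fixed dispersion for every feature). The share of 2-fold changes recovered was 82% over 771 miRNAs and 90% over 15458 genes, with 7 false calls in each. The simulation had no library that stood apart, and among miRNAs it changed a larger share than was called here. These shares thus check the code and do not give the power in these libraries. The smallest chi-square between libraries of a group was 6.86 per degree of freedom, so every library was counted. Where a gene had 0 control counts, the floor was 3 counts per library.

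Named were the 6 members, the transcripts of their loci, up to 4 genes of each list by adjusted p, the 3 most abundant of each marker list, the 3 features most like miR-146a-5p, miR-146b-5p, IRAK1 and TRAF6 (mean CPM of at least 10 for miRNAs and 5 for genes), and miRNAs that share a seed. Other names (MYD88, IRAK4, MAP3K7, miR-221-3p, miR-222-3p, miR-223-3p, miR-142-3p, the genes near the hairpins and marker genes at 0 or near it or called beside them) were chosen after their values were seen. Members and lists were chosen with earlier results of these data known. One gene of the marker lists is not reported here.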

Additional observations from a re-analysis of the deposited data

Results flagged for a closer look

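In 118 groups of 4 or 6 values checked for 1 library that stands apart from the others of its group, 19 were marked, and chance marks about 1 in 20. Control 4 of miRNA-seq accounts for 7 of them. It had miR-451a at 23153.7 CPM (other controls 810 to 1091), miR-144-3p at 273 CPM (8.42 to 13.2), miR-144-5p at 605 CPM (29.2 to 40.5), miR-486-5p at 1032 CPM (69.4 to 95.9), miR-486-3p at 1034 CPM (78.2 to 100.02) and miR-223-5p at 3.10 CPM (0 to 0.199). Its miR-7153-5p value of 0.365 CPM is 2 counts, against 0 in the other controls.

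Among the members, the miR-146a share of both 5p arms was 95.6% in coculture 3, against 97.4% to 98.1% in the other coculture libraries. The row MIR146B was at 0.0247 CPM in RNA-seq control 2 and the row MIR3142 at 0.0211 CPM in coculture 2, each of them 1 count where the other libraries of the group had 0.

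In the relay, NFKBIA stood at 182 CPM in coculture 4 (others 96.5 to 117) and at 54.8 CPM in control 2 (others 29.7 to 33.2), and TNFAIP3 at 7.79 CPM in control 2 (others 2.96 to 3.59). miR-21-5p stood at 446932 CPM in control 1, against 361938 to 370988 in the other controls. In coculture 2, miR-200c-3p was at 127 CPM (others 42.9 to 58.4) and miR-141-3p at 62.3 CPM (others 20.5 to 32.4).

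Of the myeloid genes, LYZ was at 9.79 CPM in coculture 2 (others 13.7 to 15.8) and at 0.203 CPM in control 4 (others 0.0427 to 0.0494). ITGAM was at 0 in control 1, against 0.0226 to 0.0247 CPM in the other controls, which is 1 count each.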

How the results depend on the processing

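The rise of miR-146a-5p, miR-146a-3p and MIR3142HG held in every alternative run, and IRAK1 and TRAF6 passed the threshold in none. miR-146b-3p missed the threshold with library totals alone (1.07 on the log2 scale, adjusted p = 0.120) and without coculture 1 and 2 (1.10, adjusted p = 0.147). With 1 library left out at a time, it ran from 1.04 to 1.36 and miR-146b-5p from 1.17 to 1.44, the cause of the lost calls was not tested, and the smaller number of libraries is part of these fits. In the same fits, miRNAs called higher ran from 5 to 12, miRNAs called lower from 0 to 1, blood cell miRNAs called higher from 0 to 5 (5 without control 4), genes called higher from 112 (without control 4) to 204 and genes called lower from 4 (without control 4) to 36. The 1 miRNA called lower became 0 with the size factors of DESeq2, with library totals and without coculture 1 and 2, 3 with the DESeq2 Wald test and 4 without a filter. DESeq2 called 333 genes higher and 106 lower, against 178 and 29 with edgeR, and it called 1 blood cell miRNA higher, 1 relay gene (TLR4) lower and 2 reported targets lower, and in the relay it also called NFKB1 higher. Without coculture 1 and 2, 112 genes were called lower, among them 1 reported target, THRB, at -1.12 on the log2 scale.

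Library numbers 1 to 4 occur in both groups. The deviations of same-numbered libraries from their group means correlated at 0.35, -0.08, 0.20 and 0.14 in RNA-seq. In miRNA-seq they correlated at 0.37, -0.03, 0.21 and 0.36. Control 1 and control 3 (RNA-seq) and control 1 and control 4 (miRNA-seq) were most like the coculture library of the same number. Control 2 and control 4 (RNA-seq) and control 2 and control 3 (miRNA-seq) were most like a coculture library of another number. Whether same-numbered libraries form pairs cannot be told from these values, and the main fit treated them as unpaired. With a replicate block on numbers 1 to 4, which leaves out coculture 5 and 6, miR-146b-3p stood at 1.12 (adjusted p = 0.0709), 14 miRNAs were called higher and 2 lower, 1 blood cell miRNA higher, 95 genes higher and 10 lower, and 6 myeloid genes higher. TNFAIP3 lost its call there, at 2.44 on the log2 scale (adjusted p = 0.0806), while IRAK2, NFKBIA and RELB kept theirs.

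miR-146b-3p rests on 14 to 50 counts per library. The number of control libraries, 4, limits the precision of each comparison.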

Other observations

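Apart from the 4 miR-146 arms, the miRNAs called higher in coculture were 5, and all 5 come from the miR-200b, miR-200a and miR-429 cluster on chromosome 1, within chr1:1167124-1169076 (RefSeq, GRCh38.p14). The miR-200 family is known to hold epithelial cells in their state by targeting ZEB1 and ZEB2. These miRNAs were named after their values were seen. miR-200b-3p stood at 11841 ± 1412 CPM in coculture (SD, n = 6) and 6177 ± 1163 in control (SD, n = 4), a log2 fold change of 0.94 ± 0.14 (SE; adjusted p = 0.00298, edgeR). miR-200b-5p was higher by 1.05 ± 0.14, miR-429 by 0.90 ± 0.14, miR-200a-5p by 0.74 ± 0.15 and miR-200a-3p by 0.64 ± 0.13 (log2 fold change ± SE), and no range overlapped between the groups. With 1 library left out at a time, 3 to 5 of these 5 were called.

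The related pair on chromosome 12 was not called, though its log2 fold changes, 1.01 ± 0.34 for miR-200c-3p and 1.09 ± 0.31 for miR-141-3p (SE), were as large as those of the cluster, with a wider spread. miR-200c-3p, whose ranges did not overlap, stood at 61.1 ± 32.8 CPM in coculture (SD, n = 6) and 30.3 ± 9.85 in control (SD, n = 4; adjusted p = 0.261, edgeR), and miR-141-3p at 31.8 ± 15.4 (SD, n = 6) and 14.9 ± 4.15 CPM (SD, n = 4; adjusted p = 0.161, edgeR). The seeds of miR-200b-3p, miR-429 and miR-200c-3p are the same, AAUACUG, and differ from the seeds of the miR-146 arms. The 1 miRNA called lower was miR-152-5p, at 39.0 ± 3.21 CPM in coculture (SD, n = 6) and 66.7 ± 20.3 in control (SD, n = 4), a log2 fold change of -0.77 ± 0.17 (SE; adjusted p = 0.0459, edgeR).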
